A study of Mus musculus with 17 samples.

Results

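The genes described here are 37 markers of oligodendrocytes and their precursors, followed in bulk RNA-seq of the mouse hippocampus. They were taken by name from a fixed list, and all 37 were found among the 55450 genes of the count lists. Of these, 5 mark precursor or newly committed cells (Pdgfra, Cspg4, Gpr17, Bmp4 and Enpp6), and the other 32 are called mature here. The mature set comprises 14 myelin membrane and junction proteins, 6 lipid and metabolic enzymes, 8 further genes expressed by myelinating cells and 4 transcription factors of the lineage.

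Oligodendrocytes wrap axons in myelin, a compacted membrane that speeds conduction. They arise throughout adult life from dividing precursors that express the PDGF receptor alpha chain and the proteoglycan NG2. On leaving the cell cycle, precursors pass through a short committed stage marked by Gpr17, Bmp4 and Enpp6, and then switch on the enzymes of myelin lipid synthesis and the proteins of compact myelin. The transcription factors Olig1, Olig2 and Sox10 act through the whole lineage, whereas Nkx6-2 belongs to maturing cells.

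The study asked whether raising the potassium channel gene Kcna1 in excitatory neurons by CRISPR activation alters chronic temporal lobe epilepsy. There were 5 control sgLacZ, 6 epileptic sgLacZ and 6 epileptic sgKcna1 libraries, each made from mouse hippocampus. The study's methods give the mice as C57BL/6J of both sexes, 2 to 3 months old at surgery. Hippocampi were collected later, at the end of the experiment. Epileptic mice had received kainic acid in the right amygdala, and controls were sham treated. All 3 groups carried AAV9 vectors in the right ventral hippocampus and were fed doxycycline for 2 weeks. The vectors encode dCas9-VP64, a guide RNA, and a doxycycline-dependent transactivator driven by the Camk2a promoter, so the activator is meant for excitatory neurons and not for the cells described here. The guide was sgKcna1, against the Kcna1 promoter, or sgLacZ, which has no target in the mouse. No sham group with sgKcna1 was analysed here. The labels do not say that each library is from a separate mouse, so p-values measure the spread between these libraries.

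Reads assigned to genes numbered 11839240 to 28311328 per library, and every member had at least 19 reads in every library. Of the 17 libraries, 6 held reads of both Xist and Y-linked genes above 2 CPM (read counts of a gene relative to the size of its library, with sizes adjusted by TMM), namely control replicates 16 and 23, epileptic sgLacZ replicate 8 and epileptic sgKcna1 replicates 1, 11 and 12. The labels do not say whether samples were pooled, and whether RNA was shared between libraries was not tested, so a value of these 6 may not stand for 1 mouse. Counts of members below are given with and without them. Epileptic sgKcna1 replicate 12 also stood apart by depth (11839240 reads), by its 41.5% of unmapped reads against 11.0% to 27.7% in the other libraries, and by Kcna1 at 133 CPM. The other 5 epileptic sgKcna1 libraries had 13.9 to 29.5 CPM of Kcna1, within or below the 16.9 to 56.7 CPM of epileptic sgLacZ libraries. Control libraries had 37.6, 44.0, 25.5, 33.7 and 34.6 CPM. The log2 fold change of Kcna1 between epileptic sgKcna1 and epileptic sgLacZ was 0.32 (SE 0.47, edgeR quasi-likelihood test, adjusted P = 0.706). Its confidence interval ran from -0.66 to 1.31, so these libraries cannot tell a rise in Kcna1 from none. By quantitative PCR, the paper reports more Kcna1 in injected than in contralateral hippocampi of epileptic sgKcna1 mice. By RNA-seq, the paper saw no clear rise. Pmp2, a marker of Schwann cells, which would point to peripheral nerve, had 0 reads in all 17 libraries.

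Every member was expressed well enough to be tested. Levels between genes were compared in control libraries as CPM per kilobase of transcript. Mbp, which encodes the basic protein that compacts myelin, had the highest level per length at 520 CPM per kb. It was followed by Cnp (207), an enzyme of the myelin sheath, Car2 (166), a carbonic anhydrase, and Mobp (165), another basic protein of compact myelin. At the other end were the ligand Bmp4 (1.08), the NG2 proteoglycan gene Cspg4 (1.59), Gpr17 (4.30), Enpp6 (5.49) and Pdgfra (5.63). The 5 precursor genes thus filled the 5 lowest places per length. Trf (5.91) and Pllp (6.05) came next, but both overlap other gene models, as described below, and their levels are uncertain.

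The first comparison, epileptic sgLacZ against control sgLacZ, addresses chronic epilepsy. None of the 37 members passed the threshold (edgeR quasi-likelihood F test, Benjamini-Hochberg adjusted P below 0.05 over all genes), against 1940 of the 17615 genes tested (11.0%). At an unadjusted P below 0.05 there were 6 members, which is 16.2% of them against 34.7% of all genes. Of these 2 were higher in epileptic mice, where 18.8% of all genes were, and 4 lower, where 15.9% were. DESeq2 called 3 members and 20.6% of all genes, and limma's voom with sample weights called 11 members and 41.4%. In edgeR the share of all genes called was 2.93% with sex and 2.43% with the percent of unmapped reads as a covariate. Of the 37 log2 fold changes 11 were above 0 and 26 below, with a median of -0.12, where the median over all genes was 0.02. Without the 6 libraries with reads of both sexes 25 were below 0, 0 members and 0.0% of all genes were called, and 12 members had an unadjusted P below 0.05, as had 36.2% of all genes.

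Single libraries moved the number of calls, for the members as for all genes. Without epileptic sgLacZ replicate 5 there were 8 members called and 31.3% of all genes, and without replicate 8 there were 3 members and 13.6%. Leaving out epileptic sgKcna1 replicate 12, which is in neither of the groups compared, gave 4 members and 27.1% of all genes. Leaving out replicate 1 gave 2 members and 8.7%, and leaving out both gave 4 members and 25.9%. With only the 2 groups compared, 3 members and 17.9% of all genes were called. These members were drawn from Enpp6, Evi2a, Bmp4, Trf, Olig2, Pllp, Ppp1r14a and Qdpr, which are described below. Bulk tissue cannot tell fewer cells of a type from less RNA per cell.

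**Figure D1:**
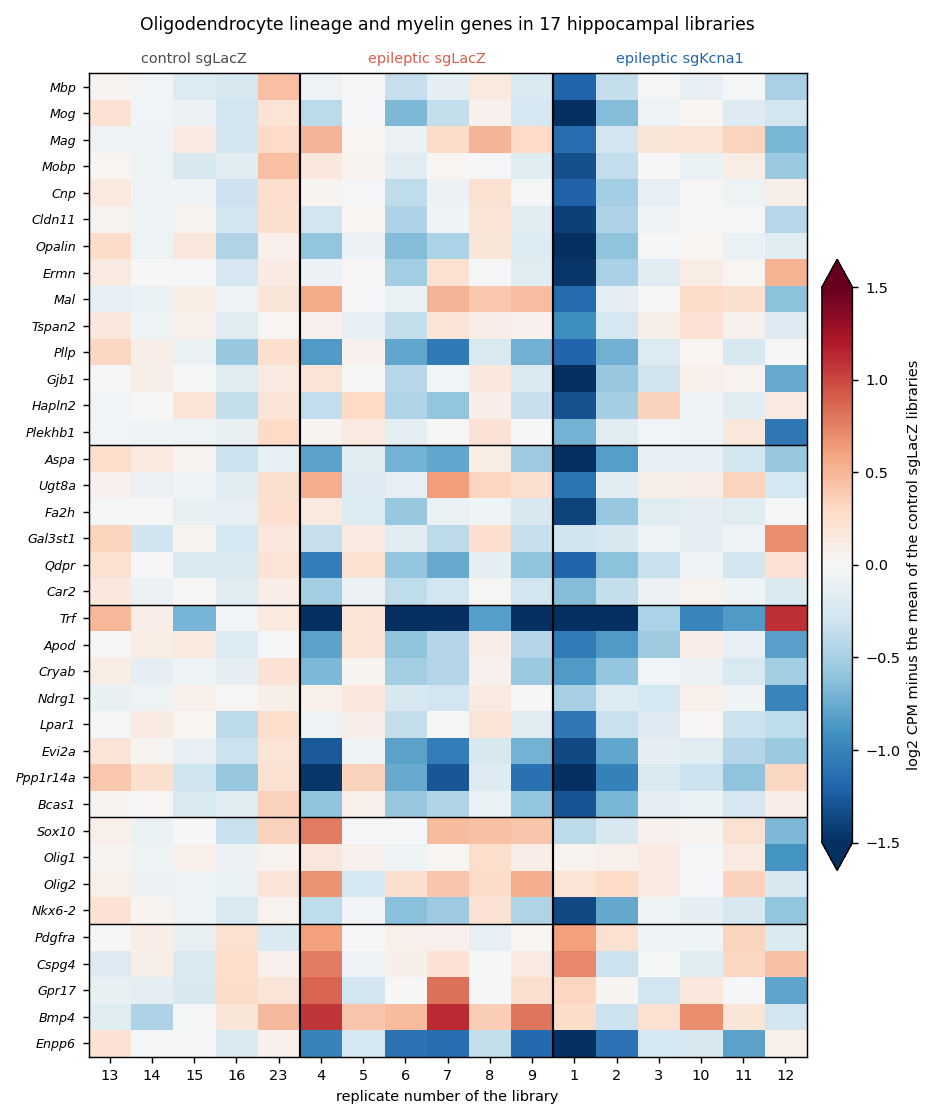
Heat map of log2 CPM minus the control mean (colour scale from -1.5 to 1.5) for the 37 members (rows, black lines between roles) in the 17 libraries (columns, by group and replicate number). Epileptic sgKcna1 replicate 1 is the lowest of all 17 libraries for 25 of the 32 mature members, and in epileptic sgLacZ replicates 4, 6, 7 and 9 are lower than replicates 5 and 8 for Trf, Evi2a, Ppp1r14a and Enpp6.

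The 5 precursor members differed among themselves. Pdgfra encodes the receptor through which platelet-derived growth factor keeps precursors dividing. Control libraries had 36.6, 39.4, 34.1, 43.2 and 31.5 CPM of Pdgfra, and epileptic sgLacZ libraries ranged from 33.7 over a median of 38.0 to 56.2 CPM. The highest value was that of replicate 4, and the other 5 lay within the control range. The log2 fold change was 0.13 (SE 0.15, adjusted P = 0.579). Cspg4, the NG2 proteoglycan of precursors, had 11.1, 13.5, 10.9, 15.3 and 13.3 CPM in controls and 12.1, 13.7 and 21.8 CPM as the lowest, median and highest epileptic sgLacZ value. Replicate 4 was again the only epileptic sgLacZ library above all controls, and the log2 fold change was 0.21 (SE 0.19, adjusted P = 0.449). Gpr17 encodes a receptor of committed precursors. It stood at 20.6, 20.2, 18.8, 26.8 and 25.4 CPM in controls and at 18.1, 24.1 and 40.8 CPM (lowest, median, highest) in epileptic sgLacZ libraries. Replicates 4 and 7, at 40.8 and 39.2 CPM, exceeded every control, and replicate 5 lay below every control. The log2 fold change of Gpr17 was 0.33 (SE 0.22, edgeR adjusted P = 0.283). Its counts by strand added up to 1.18 times its unstranded count, which occurs where another gene overlaps.

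Bmp4, a ligand of the bone morphogenetic protein family that committed precursors express, was the member with the smallest P. Control libraries had 1.89, 1.54, 2.13, 2.47 and 3.06 CPM, and epileptic sgLacZ libraries had from 2.82 over a median of 3.44 to 4.80 CPM. The groups overlapped because control replicate 23 lay above 3 of the 6 epileptic libraries, and the other 3 lay above all controls. The log2 fold change of 0.74 (SE 0.24) missed the threshold at an adjusted P of 0.0526. Over the alternatives the adjusted P ranged from 0.0119 to 0.192. Bmp4 had only 19 to 137 reads per library, and both strand counts added up to 1.19 times its unstranded count, which occurs where another gene overlaps.

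Enpp6, a choline phosphodiesterase of newly formed oligodendrocytes, pointed the other way. Controls had 19.5, 16.4, 16.4, 14.3 and 17.4 CPM of Enpp6, whereas epileptic sgLacZ libraries had 7.43, 8.00 and 13.9 CPM as the lowest, median and highest value. Every epileptic sgLacZ library lay below every control, which was so for 774 of all 17615 genes in one direction or the other (4.39%) and for no other member. The mean was 16.8 ± 1.89 CPM (SD, n = 5) in controls against 9.65 ± 2.99 CPM (SD, n = 6), and the log2 fold change was -0.80 (SE 0.27, edgeR adjusted P = 0.0554), so that Enpp6 too missed the threshold. The gap between groups was narrow, 14.3 against 13.9 CPM, because replicates 5 and 8 stood at 13.9 and 13.0 CPM and the other 4 at 7.43 to 8.27. The adjusted P of Enpp6 ranged from 0.00113 to 0.147 over the alternatives. Its largest value came with the percent of unmapped reads as a covariate, which moved the log2 fold change to -0.55. Unmapped reads were 11.0% to 19.5% in replicates 4, 6, 7 and 9, 23.8% and 24.1% in replicates 8 and 5, and 19.5% to 27.7% in controls. Whether mapping accounts for the level of Enpp6 was not tested.

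The stretches before the start of transcription are shown for the 4 members that had an unadjusted P below 0.05 in this comparison and an entry in the RefSeq promoter table (GRCm38.p6). Each run gives the 250 bases upstream of the start on the strand of the gene. Capitals mark matches to the core bound by SOX factors such as Sox10 (ACAATG or ACAAAG) and to the E-box bound by factors such as Olig2 (CANNTG), each searched on both strands. No ACAAAG was found in these 4 windows. The promoter of Bmp4 (chr14:46390670-46390919, minus strand) held 3 E-boxes and no SOX core.
Bmp4: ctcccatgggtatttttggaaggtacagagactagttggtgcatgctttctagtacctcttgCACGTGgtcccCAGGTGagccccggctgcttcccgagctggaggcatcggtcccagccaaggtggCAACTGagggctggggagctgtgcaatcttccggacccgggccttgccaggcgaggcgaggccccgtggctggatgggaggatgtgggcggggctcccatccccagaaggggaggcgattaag
That of Enpp6 (chr8:46986637-46986886, plus strand), at a start site within the annotated span of the gene, held 1 SOX core and no E-box, and with 38.4% G and C it was the least rich in these bases of the 4.
Enpp6: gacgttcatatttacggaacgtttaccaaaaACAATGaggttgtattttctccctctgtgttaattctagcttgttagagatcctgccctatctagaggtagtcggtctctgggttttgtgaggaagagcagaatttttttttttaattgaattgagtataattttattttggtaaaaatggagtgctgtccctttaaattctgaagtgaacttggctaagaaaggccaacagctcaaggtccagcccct
Pllp (chr8:94696243-94696492, minus strand) held 2 E-boxes and no SOX core.
Pllp: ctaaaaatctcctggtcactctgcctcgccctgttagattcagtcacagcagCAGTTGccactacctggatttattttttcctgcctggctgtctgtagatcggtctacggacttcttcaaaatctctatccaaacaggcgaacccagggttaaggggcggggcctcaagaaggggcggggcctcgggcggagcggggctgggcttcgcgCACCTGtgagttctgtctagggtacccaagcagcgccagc
Olig2 (chr16:91225300-91225549, plus strand) held 1 SOX core, on the opposite strand, and no E-box.
Olig2: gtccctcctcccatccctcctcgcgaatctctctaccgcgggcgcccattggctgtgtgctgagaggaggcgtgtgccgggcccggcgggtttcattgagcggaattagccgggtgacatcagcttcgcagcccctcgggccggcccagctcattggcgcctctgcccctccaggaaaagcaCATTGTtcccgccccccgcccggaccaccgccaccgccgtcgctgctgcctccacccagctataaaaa

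The table held 37 promoter windows for 26 of the members, some genes having several start sites. ACAATG or ACAAAG was present in 18 of these 37 windows (48.6%), against 25.2% of all 32851 windows of the same length. CANNTG was present in 62.2% of member windows and 66.2% of all. These are matches of letters and not shown to be bound sites, and windows of the same gene can overlap.

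The 4 transcription factors were measured next. Olig2 (chromosome 16, 91225550 to 91228677) specifies the lineage. It had 24.4, 21.8, 22.0, 21.7 and 26.5 CPM in controls and 19.3, 29.5 and 37.2 CPM (lowest, median, highest) in epileptic sgLacZ libraries, of which 5 of 6 lay above all controls and replicate 5 below all. The log2 fold change was 0.34 (SE 0.14, adjusted P = 0.101). Sox10, which drives myelin gene transcription, had 43.2, 38.2, 40.8, 32.5 and 52.1 CPM in controls against 40.3, 55.0 and 69.9 CPM in epileptic sgLacZ libraries, and 4 of 6 lay above all controls (log2 fold change 0.36, SE 0.17, adjusted P = 0.145). Olig1, the neighbour of Olig2 on chromosome 16, had 149, 138, 153, 137 and 150.0 CPM in controls and 139, 154 and 174 CPM in epileptic sgLacZ libraries, which overlapped (log2 fold change 0.10, SE 0.14). Nkx6-2 had 36.4, 32.3, 29.6, 26.7 and 32.5 CPM in controls and 20.2, 23.5 and 36.4 CPM in epileptic sgLacZ libraries, and 4 of 6 lay below all controls (log2 fold change -0.28, SE 0.20, adjusted P = 0.313). Both Olig1 and Nkx6-2 share reads with overlapping genes, the strand counts adding up to 1.39 and 1.80 times the unstranded count.

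Of the 14 myelin membrane and junction proteins 11 had a log2 fold change below 0, and 1 had an unadjusted P below 0.05. Mbp had 2526, 2385, 2126, 2078 and 3358 CPM in controls and 1925, 2281 and 2721 CPM as the lowest, median and highest in epileptic sgLacZ libraries. The groups overlapped almost wholly, only replicate 6 lying below all controls, and the log2 fold change was -0.12, with a 95% interval from -0.50 to 0.25 (adjusted P = 0.655). Mog, a protein of the outer myelin surface, had 117, 97.7, 95.2, 82.4 and 116 CPM against 63.5, 81.4 and 105 CPM, a log2 fold change of -0.27 (interval -0.72 to 0.18). For Mag, an adhesion molecule on the inner side of the sheath that faces the axon, the direction was the opposite, with 169, 171, 194, 146 and 217 CPM in controls and 167, 216 and 252 CPM in epileptic sgLacZ libraries (log2 fold change 0.26, interval -0.18 to 0.70). Mal, a raft protein of myelin transport, had 165, 167, 194, 169.9 and 204 CPM against 167, 243 and 265 CPM, and 4 of 6 epileptic libraries lay above all controls (log2 fold change 0.32, adjusted P = 0.263). The intervals of these 4 genes all contain 0, and those of Mbp and Mog also reach -0.50 and -0.72, so lower levels of that order could not be told from none. The other 10 were Mobp, Cnp, Cldn11 (the tight junction protein of myelin), Opalin, Ermn, Tspan2, Pllp, Gjb1 (connexin 32), Hapln2 and Plekhb1, with log2 fold changes from -0.58 to 0.04. The strand counts of Ermn and Cnp added up to 1.24 and 1.051 times the unstranded count, so both share some reads with overlapping genes.

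Within that group Pllp, which encodes plasmolipin, had the lowest value. It had 13.9, 11.9, 10.5, 7.53 and 13.4 CPM in controls and 5.33, 6.59 and 11.6 CPM in epileptic sgLacZ libraries, of which 4 of 6 lay below all controls. Its log2 fold change was -0.58 (SE 0.24, edgeR adjusted P = 0.0949). The strand counts of Pllp added up to 10.5 times its unstranded count, which occurs where another gene overlaps. Using the sum of the strand counts, the log2 fold change was -0.16 (edgeR adjusted P = 0.492). As the libraries hold no strand preference, that sum can include reads of the overlapping gene, so neither value is certain for Pllp.

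**Figure D2:**
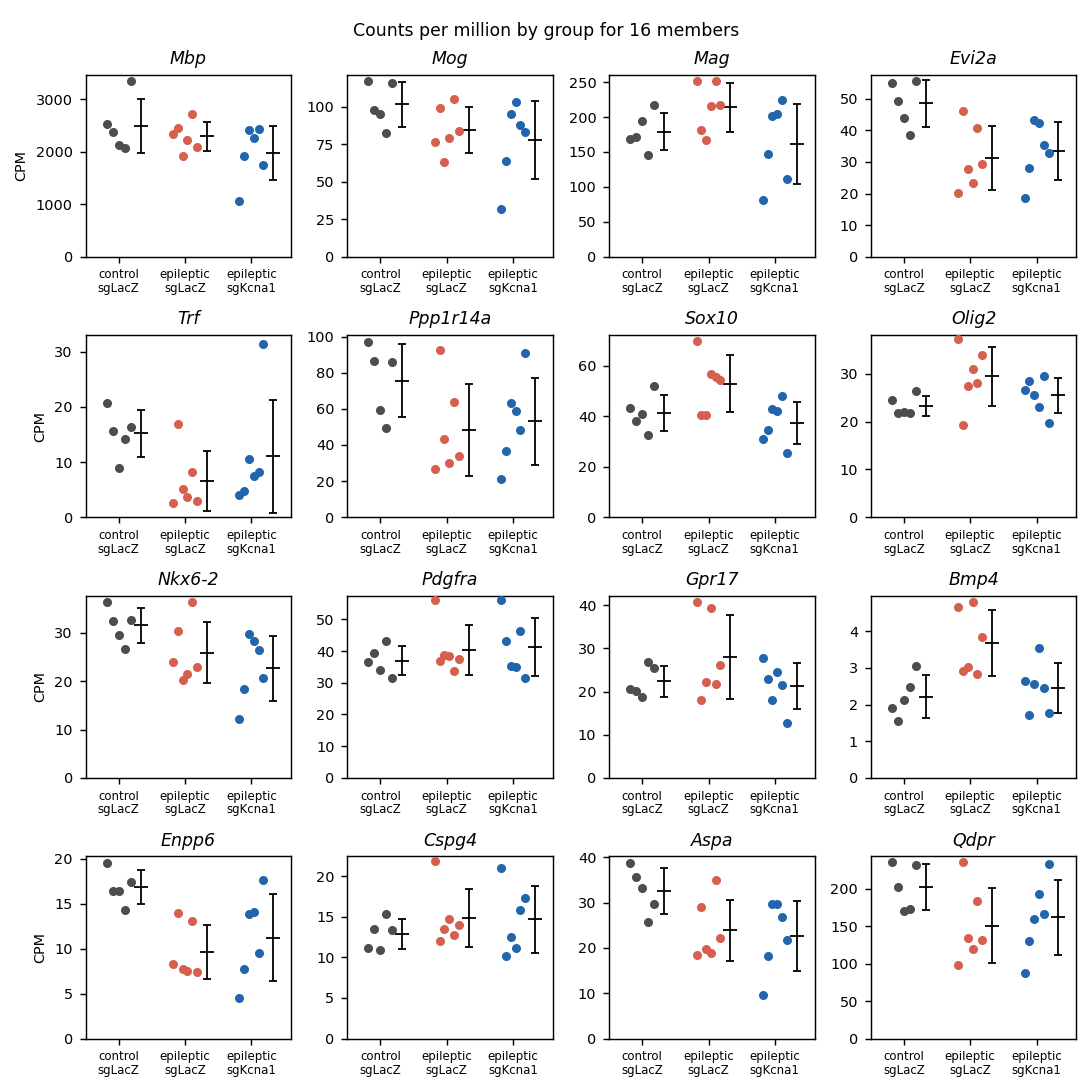
CPM (vertical axis, linear from 0) of 16 members in control sgLacZ (grey), epileptic sgLacZ (red) and epileptic sgKcna1 (blue) libraries, 1 point per library in order of replicate number, with black bars for the mean ± SD (n = 5, 6 and 6). For Enpp6 the highest epileptic sgLacZ library (13.9 CPM) lies below the lowest control (14.3 CPM), and for the other members shown the groups overlap.

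All 8 members of the group of iron, lipid, stress, receptor and signalling genes had a log2 fold change below 0, with a median of -0.34, and 2 had an unadjusted P below 0.05. Evi2a, a membrane protein gene that lies inside an intron of Nf1, had 55.1, 49.5, 44.1, 38.5 and 55.6 CPM in controls and 20.0, 28.5 and 46.3 CPM in epileptic sgLacZ libraries. Replicates 5 and 8 lay within the control range and the other 4 below it (log2 fold change -0.64, SE 0.22, adjusted P = 0.0589, range over alternatives 0.00325 to 0.162). Trf, transferrin, which carries iron and is made by oligodendrocytes in the brain, had the lowest log2 fold change of the 37, -1.22 (SE 0.51, adjusted P = 0.102). Controls had 20.8, 15.7, 8.99, 14.3 and 16.3 CPM, and epileptic sgLacZ libraries had 2.59, 4.40 and 16.8 CPM, 5 of 6 lying below all controls and replicate 5 within their range. In the older gene models at hand another model on the same strand covers 63.7% of the exons of Trf, so most of its reads may have been left out as ambiguous and its level is uncertain. For Evi2a the exons covered on the same strand are 17.9%, so some of its reads may have been left out too.

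Ppp1r14a, an inhibitor of myosin phosphatase with the shortest transcript of the 37, had 97.0, 86.8, 59.4, 49.2 and 86.1 CPM in controls and 26.6, 38.6 and 92.8 CPM in epileptic sgLacZ libraries (log2 fold change -0.65, SE 0.34, adjusted P = 0.178). Cryab, a small heat shock protein, had 160.0, 134, 141, 135 and 172 CPM against 92.6, 106 and 154 CPM (log2 fold change -0.32, adjusted P = 0.155). Bcas1, a marker of cells in the act of myelinating, had 156, 153, 129, 135 and 192 CPM against 99.8, 106 and 159 CPM (log2 fold change -0.36, adjusted P = 0.194). In each of these 3 genes the 4 epileptic libraries below all controls left 2 within the control range. Apod, a lipid carrier, Ndrg1 and the lysophosphatidic acid receptor Lpar1 had log2 fold changes of -0.29, -0.02 and -0.06. The strand counts of Bcas1 and Ndrg1 added up to 1.09 and 1.77 times the unstranded count.

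Among the 6 enzymes 5 had a log2 fold change below 0, and none had an unadjusted P below 0.05. Car2 had 329.8, 277, 299, 260.1 and 316 CPM in controls and 206, 242 and 299.9 CPM in epileptic sgLacZ libraries (log2 fold change -0.25, adjusted P = 0.150). Aspa, aspartoacylase, which frees acetate for myelin lipids, had 38.7, 35.7, 33.2, 25.8 and 29.8 CPM against 18.5, 20.9 and 35.0 CPM (log2 fold change -0.45, adjusted P = 0.173). Qdpr, a pteridine reductase abundant in oligodendrocytes, had 235, 202, 171, 173 and 231 CPM against 98.5, 133 and 235 CPM (log2 fold change -0.43, adjusted P = 0.178). For all 3 enzymes 4 of the 6 epileptic sgLacZ libraries lay below all controls. The strand counts of Qdpr added up to 2.34 times its unstranded count. Ugt8a, which makes the galactolipids of myelin, had a log2 fold change of 0.26, Fa2h, which hydroxylates their fatty acids, of -0.16 and Gal3st1, which adds sulphate to them, of -0.15.

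**Figure D3:**
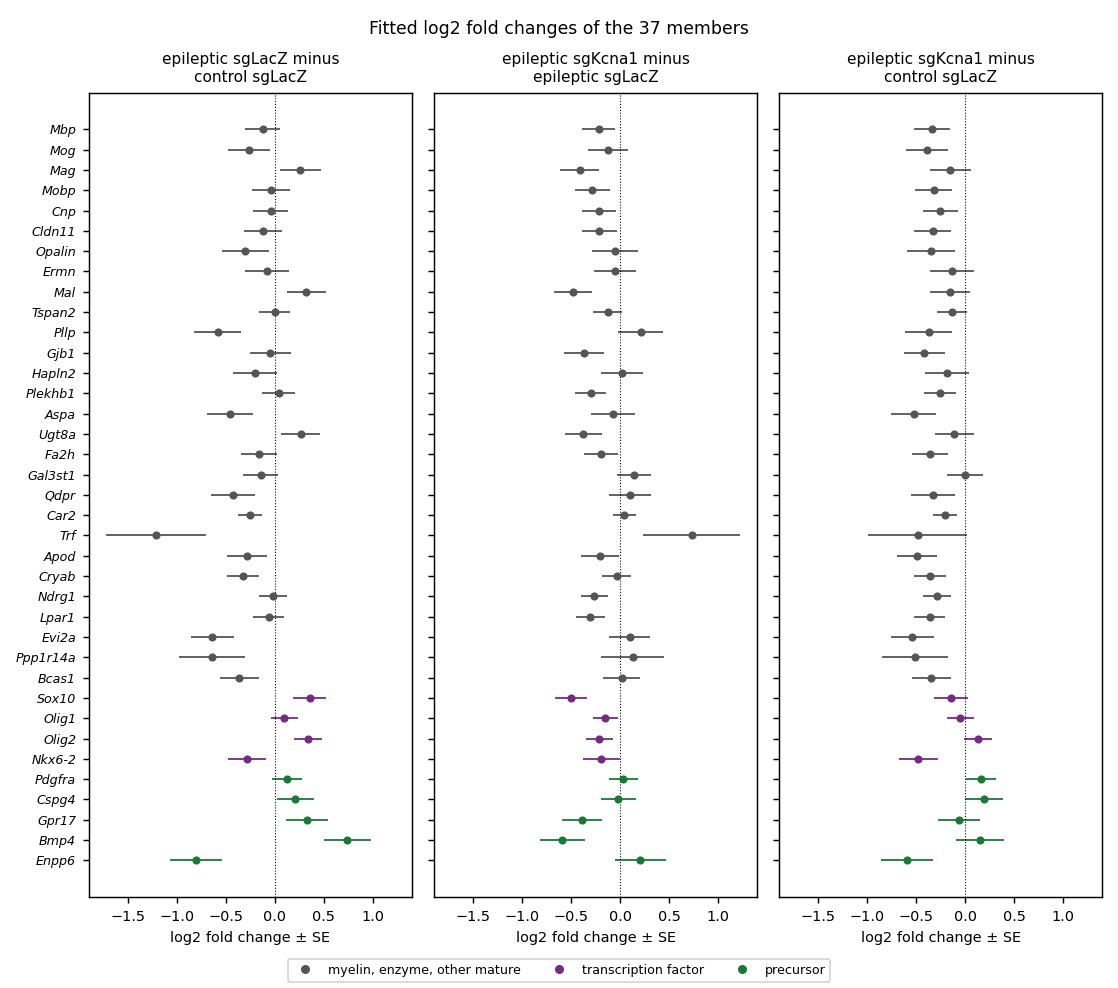
Fitted log2 fold change with its standard error (horizontal axis) for each of the 37 members (rows) in the 3 comparisons (panels), with mature genes in grey, transcription factors in purple and precursor genes in green. In epileptic sgLacZ against control the values run from -1.22 (Trf) to 0.74 (Bmp4), and in epileptic sgKcna1 against control 33 of 37 lie below 0.

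Other measures moved with these values. Across the 37 members the Spearman correlation of log2 fold change with transcript length was 0.49 in epileptic sgLacZ against control, and over 14619 genes with a length it was 0.38, a description across genes that share libraries. The 19 shorter members, up to 2.43 kb, had a median log2 fold change of -0.27 and the 18 longer ones of -0.01. Of astrocyte markers 2 of 6 were called higher (Gfap, log2 fold change 0.60, and Aldh1l1, 0.33), and their summed level was 2005 to 2365 CPM in controls and 2291 to 3039 CPM in epileptic sgLacZ libraries. Of neuron markers 1 of 8 (Slc17a7, 0.77), of microglia markers 1 of 6 (Csf1r, 0.38) and of hippocampal principal neuron markers 2 of 6 (Wfs1, 0.49, and Spink8, -0.91) were called. Choroid plexus markers were not called (0 of 5), and their summed level ranged from 1198 to 12512 CPM among controls alone. The part of length, of other cell types and of dissection in the values of the members was not tested.

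**Figure D4:**
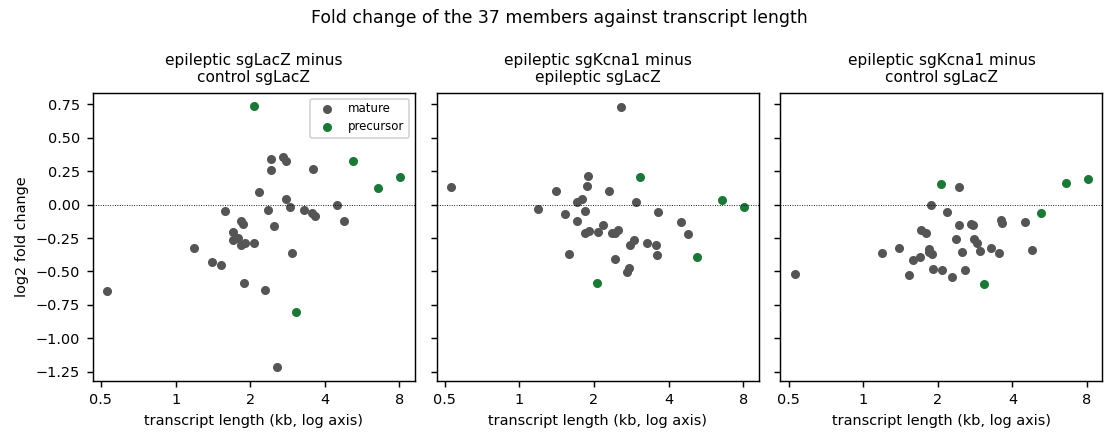
Fitted log2 fold change (vertical axis) against transcript length in kilobases (horizontal log axis) for the 37 members in the 3 comparisons, mature genes in grey and precursor genes in green. In epileptic sgLacZ against control the 19 shorter members have a median of -0.27 and the 18 longer ones of -0.01.

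A further 52 genes of the lineage, 35 mature and 17 of precursors, were tested beside the members. In epileptic sgLacZ against control 4 of 52 were called, 2 higher and 2 lower, which is below the 11.0% of all genes. Those higher were Tnr, the extracellular matrix protein tenascin-R (log2 fold change 1.41, SE 0.33, adjusted P = 0.0327), and Nfasc, a neurofascin that binds at the node of Ranvier (0.70, SE 0.19, adjusted P = 0.0391). Those lower were Nkx2-2, a transcription factor of differentiation (-0.63, SE 0.19, adjusted P = 0.0424), and Omg, a myelin glycoprotein (-0.36, SE 0.11, adjusted P = 0.0457). Tnr averaged 22.2 ± 4.00 CPM (SD, n = 5) in control against 59.0 ± 34.2 CPM (SD, n = 6) in epileptic sgLacZ libraries, and all 4 genes overlapped between groups. Neurons also express Nfasc and Omg. Without the 6 libraries with reads of both sexes 0 of the 52 were called. Tnr and Nkx2-2 share reads with overlapping genes, and from the sum of the strand counts Nkx2-2 had a log2 fold change of -0.20 (edgeR adjusted P = 0.357). That sum can include reads of the overlapping gene.

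The second comparison, epileptic sgKcna1 against epileptic sgLacZ, addresses treatment in epileptic mice and uses the same epileptic sgLacZ libraries as the one above. No member was called by edgeR (0 of 37), nor was any of the 17615 genes (0.0%). DESeq2 and voom also called 0 members, and 0.881% and 0.0681% of all genes. At an unadjusted P below 0.05 there were 3 members, or 8.11% against 19.2% of all genes. All 3 were lower in epileptic sgKcna1 libraries, where 10.5% of all genes were, and in no member were the groups apart, which 0.483% of all genes were. These were Sox10 (log2 fold change -0.50, SE 0.16, adjusted P = 0.213), Bmp4 (-0.59, SE 0.23, adjusted P = 0.217) and Mal (-0.48, SE 0.19, adjusted P = 0.225). Sox10 ranged from 25.6 over a median of 38.3 to 47.9 CPM in epileptic sgKcna1 libraries, and 3 of 6 lay below all epileptic sgLacZ libraries. Bmp4 ranged from 1.72 over 2.51 to 3.55 CPM, and 5 of 6 lay below them. Mal ranged from 80.5 over 171 to 219 CPM, and 3 of 6 lay below them. Without the 6 libraries with reads of both sexes 0 members and 0.0% of all genes were called, and 2 members had an unadjusted P below 0.05, as had 13.5% of all genes. Without epileptic sgLacZ replicate 5, Sox10 was the only member called in this comparison (log2 fold change -0.57, edgeR adjusted P = 0.0445), beside 8.54% of all genes. Enpp6 had 4.48, 11.7 and 17.6 CPM as the lowest, median and highest epileptic sgKcna1 value, which covers the whole range of epileptic sgLacZ libraries (log2 fold change 0.21, interval -0.33 to 0.75).

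The size of the shift over the mature members depended on epileptic sgKcna1 replicate 1. Of the 32 mature members 23 were below 0 with all libraries, with a median log2 fold change of -0.17, and 18 without replicate 1, with a median of -0.06. Without the 6 libraries with reads of both sexes 16 were above and 16 below 0, with a median of 0.01.

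The third comparison set epileptic sgKcna1 against the same control libraries. No member was called by edgeR (0 of 37), as was no gene of 17615 (0.0%). DESeq2 and voom called 0 members as well, and 0.222% and 0.403% of all genes. In no member were the groups apart, which 1.14% of all genes were. Of the 37 members 33 had a log2 fold change below 0, with a median of -0.32 where that of all genes was 0.02, and 7 had an unadjusted P below 0.05, or 18.9% against 6.77% of all genes. All 7 were lower, where 2.48% of all genes were. The 3 with the smallest P were Evi2a (-0.54, SE 0.22, adjusted P = 0.683), Nkx6-2 (-0.48, SE 0.20, adjusted P = 0.695) and Apod (-0.49, SE 0.20, adjusted P = 0.695), each with 4 of 6 epileptic sgKcna1 libraries below all controls. Evi2a had 18.7, 34.2 and 43.3 CPM, Nkx6-2 12.2, 23.6 and 29.8 CPM, and Apod 133, 173 and 294 CPM as the lowest, median and highest of the 6. Enpp6 lay below all controls in 5 of 6 libraries, the exception being replicate 12 at 17.6 CPM (log2 fold change -0.59, SE 0.27, adjusted P = 0.711).

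Replicate 1 weighed on this count too. Without it, 0 members had an unadjusted P below 0.05, against 4.92% of all genes, and without the 6 libraries with reads of both sexes there was 1, against 9.51%, with 0 members and 0.0% of all genes called. The share of members below 0 was less affected, with 30 and 29 of 37, and median log2 fold changes of -0.19 and -0.20. All 14 myelin membrane and junction proteins were below 0 with all libraries, from -0.42 to -0.13. Mbp in epileptic sgKcna1 libraries had 1068, 2087 and 2430 CPM (lowest, median, highest) and a log2 fold change against control of -0.34, with an interval from -0.71 to 0.04. Mog had 31.9, 85.8 and 103 CPM (-0.39, interval -0.84 to 0.06), and Mag had 80.6, 174 and 224 CPM (-0.15, interval -0.59 to 0.29). The lowest value of each of these 3 genes was that of replicate 1.

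Of the other 52 lineage genes none was called in either comparison of epileptic sgKcna1 mice (edgeR, and 0 by DESeq2 and voom). At an unadjusted P below 0.05 there were 17 against epileptic sgLacZ, 3 higher and 14 lower, which is 32.7% of the list against 19.2% of all genes. Without the 6 libraries with reads of both sexes there were 7, or 13.5% of the list and of all genes. Against control there were 5, or 9.62% against 6.77%, and without those libraries 1, or 1.92% against 9.51%. The 4 with the smallest P against epileptic sgLacZ were Sema5a (log2 fold change -0.61), Cd82 (-0.54), Nfasc (-0.57) and Tnr (-0.88), each at an adjusted P of 0.213. Against control they were Nkx2-2 (-0.49), Susd5 (0.88), Cdk18 (0.60) and Gpr37 (-0.39), at adjusted P values of 0.674 to 0.695.

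Mature and precursor genes were also summarised for each library as the median of log2 CPM relative to the control mean. The 32 mature members had a median of -1.20 in epileptic sgKcna1 replicate 1, far from the -0.50 to 0.20 of the other 16 libraries, and their summed level was 3038 CPM there against 4912 to 8050 CPM elsewhere. The same library had 0.32 for the 5 precursor members, with 56.2 CPM of Pdgfra and 21.0 of Cspg4, each the highest of its group, beside the lowest Enpp6 of all (4.48 CPM). Its summed level of choroid plexus markers was 665 CPM, that of replicate 2, next lowest for mature genes in its group (-0.50), was 291 CPM, and the other 15 libraries had 1198 to 12512 CPM. Neuron markers summed to 6213 CPM in replicate 1, within the 5481 to 6840 CPM of all libraries, and hippocampal principal neuron markers to 518 CPM, the lowest of all. The part of dissection in the values of replicate 1 was not tested. Epileptic sgLacZ replicate 4 had the highest precursor median, 0.77, with mature genes at -0.18, and its summed thalamus markers were the highest of all libraries at 150 CPM, against 63.6 to 106 CPM in the others.

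**Figure D5:**
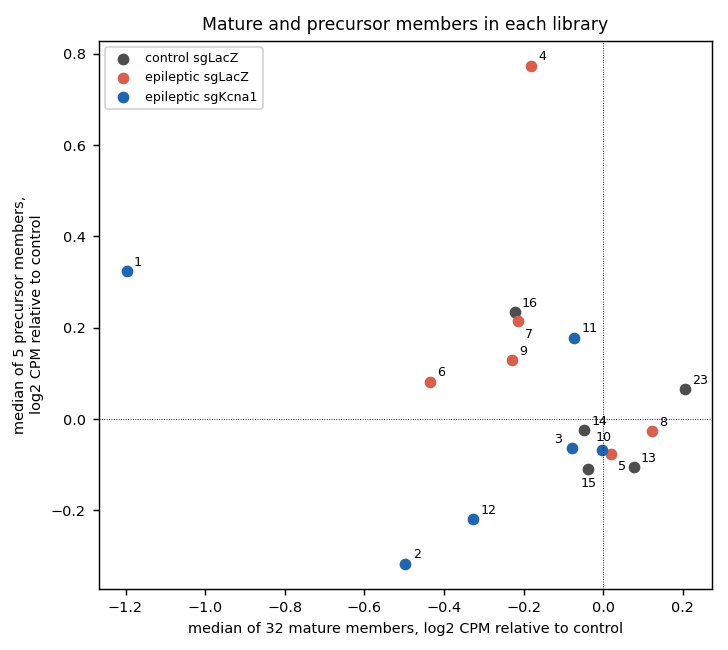
Median of the 32 mature members (horizontal axis) and of the 5 precursor members (vertical axis) in each of the 17 libraries, as log2 CPM relative to the control mean, coloured by group and numbered by replicate. Epileptic sgKcna1 replicate 1 lies at -1.20 for mature genes and epileptic sgLacZ replicate 4 at 0.77 for precursor genes, apart from the other libraries.

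Averaged by group, the mature median was -0.01 ± 0.16 (SD, n = 5) in control libraries. It was -0.15 ± 0.20 (SD, n = 6) in epileptic sgLacZ libraries, and epileptic sgKcna1 libraries stood at -0.36 ± 0.45 (SD, n = 6). For the precursor median the same averages were 0.01 ± 0.14, 0.18 ± 0.31 and -0.03 ± 0.24 (SD). For the mature median, the epileptic sgKcna1 mean differed from both others by less than its own SD, which includes replicate 1, but by more than the SD of epileptic sgLacZ libraries. These differences were not tested.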

How the data were processed

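RNA of 17 hippocampal samples was sequenced. The authors aligned reads to the mm10 genome with STAR 2.7, per the submitters' processing notes, and deposited raw counts of reads per gene for either strand, the forward strand and the reverse strand. Neither the annotation release nor the handling of duplicate reads is given in the sources used here. Reads mapped to several places are left out of such counts, and reads inside overlapping genes count for neither. The labels name a kit without strand information and the methods a stranded one. The ratio of reverse to forward reads was 0.994 to 0.998, so the unstranded counts were used, and genes whose strand counts added up to over 1.05 times the unstranded count were treated as overlapping.

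The tests used edgeR 4.0.16 under R 4.3.3 (filterByExpr by group, TMM, 1 fit over 17 libraries and 3 groups without covariates, two-sided quasi-likelihood F test), checked on simulated counts. Multiplicity was handled by Benjamini-Hochberg adjustment over 17615 genes with a threshold of 0.05. Standard errors came from the fold change and its F statistic. DESeq2 1.42.0, limma 3.58.1 (voom with sample weights), other scaling and filters, strand sums, covariates, fits of 2 groups and leaving out libraries were alternatives, of which those without the 6 libraries with reads of both sexes and without epileptic sgKcna1 replicates 1 and 12 were chosen after seeing the data. Transcript lengths and exon overlaps came from an mm9 annotation, and coordinates from GRCm38.p6. With 3 reads as the floor of detection, the limit was 0.106 CPM in the deepest and 0.253 CPM in the shallowest library, for counting error only.

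The members, the gene lists and the naming rule were chosen with earlier results of these data known. All 37 members are named. Values by library are given for the 5 precursor genes, the 4 transcription factors, Mbp, Mog, Mag, Kcna1 and the 10 further members with the smallest P in epileptic sgLacZ against control. Where no member passed, the 3 with the smallest P are named, as are the 4 other lineage genes with the smallest P. Lhfpl3 was not analysed here. Trf has 2 gene identifiers, and the one that held reads was used.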

Additional observations from a re-analysis of the deposited data

Results flagged for a closer look

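Values of members that lay far from the others of their group, by Dixon's criterion at the 95% level, were found in 8 of 120 groups of libraries, where chance would mark about 5%. In epileptic sgKcna1 replicate 12 the levels of Gal3st1 (36.3 CPM), Trf (31.5 CPM) and Kcna1 (133 CPM) were far above and that of Olig1 (77.7 CPM) far below the other 5 libraries. In epileptic sgLacZ replicate 4 those of Pdgfra (56.2 CPM) and Cspg4 (21.8 CPM) and the median of the precursor members (0.77, log2 relative to control) were far above. In control replicate 23 Plekhb1, at 377 CPM, stood above the other 4 controls.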

How the results depend on the processing

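No paired analysis was possible because the groups share no replicate number.

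In epileptic sgLacZ against control the members called numbered 0 in the edgeR fit of all libraries and 3 with DESeq2, 11 with voom, 3 with only the 2 groups compared and 4 without epileptic sgKcna1 replicates 1 and 12. Leaving out 1 library gave 0 to 8, with 2 to 4 without epileptic sgKcna1 replicate 1 or 12 or epileptic sgLacZ replicate 8, and 8 without epileptic sgLacZ replicate 5. Of the 17 fits without 1 library, 4 called Enpp6, 4 called Evi2a and 3 called Bmp4. Each of these genes was called in 4 of the 10 other alternatives. The 4 other lineage genes called became 8 with DESeq2, 17 with voom, 1 with the percent of unmapped reads or sex as a covariate, 7 with only the 2 groups, 0 without the 6 libraries with reads of both sexes, 13 without epileptic sgKcna1 replicates 1 and 12, and 0 to 11 when 1 library was left out. These counts moved with the share of all genes called. With DESeq2 15.4% of the 52 were called against 20.6% of all genes, and with voom 32.7% against 41.4%. Without epileptic sgKcna1 replicates 1 and 12 it was 25.0% against 25.9%. With the percent of unmapped reads as a covariate it was 1.92% against 2.43%, and with sex 1.92% against 2.93%. Xist exceeded the summed Y-linked genes in 2 of 5 control, 4 of 6 epileptic sgLacZ and 2 of 6 epileptic sgKcna1 libraries. All genes called ranged from 0 to 5526 over fits without 1 library, so calls of single genes in this comparison depend on single libraries.

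In epileptic sgKcna1 against epileptic sgLacZ, 0 to 1 members and 0 to 4 other lineage genes were called when 1 library was left out, and the median log2 fold change of precursor members went from -0.02 to -0.43 without the 6 libraries with reads of both sexes. The cause was not tested. In epileptic sgKcna1 against control no alternative called a member. The median of mature members in that comparison lay between -0.39 and -0.19 over fits without 1 library. The level of Bmp4 is limited by depth, since it had 19 reads in its lowest library, where the other precursor members had at least 102 in theirs.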
